A study of Mus musculus with 6 samples.

Results

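Receptor tyrosine kinases are cell surface receptors that bind a ligand outside the cell and phosphorylate tyrosines inside it. The 10 receptor genes described here are Kit, Tek, Tie1, Kdr, Pdgfra, Igf1r, Insr, Mertk, Axl and Tyro3, a list of receptors of stem, endothelial, mesenchymal and phagocytic cells. Each was read from a probeset annotated to that gene alone, and where a gene had several such probesets the one with the highest mean over the 6 arrays stood for it, a choice that arose for Insr only. The probeset was thus selected on its mean level, and that level is a description. All 10 had a probeset, among 19938 genes with one. Of these genes 14994 were tested, after the lowest 25% of probesets by mean over the 6 arrays (a log2 mean up to 5.15) had been left out. Of the receptors 8 passed that filter and 2, Kdr and Mertk, did not.

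Gene expression was measured on MoGene 1.0 ST arrays in KSL SLAM cells from mouse bone marrow. This fraction is enriched for haematopoietic stem cells and was sorted in both groups for c-Kit, Sca-1 and CD150 and against lineage markers, CD41 and CD48. The mice had received G-CSF (granulocyte colony-stimulating factor, a cytokine that drives neutrophil production and mobilises stem cells) for 7 days at 125 mcg/kg in 2 subcutaneous injections per day, or PBS over the same 7 days. Each group had 3 arrays, each from a separate pool of 5 to 10 mice. The labels name no strain, sex or age. The deposited values were intensities, and log2 of them is used throughout, and every difference is G-CSF minus PBS.

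The gate used the protein that Kit encodes, so both groups were selected for c-Kit on the cell surface. The values used here hold no measure of the purity of the sort. Kit binds stem cell factor (the product of Kitl) and is known for its part in the survival and self-renewal of blood stem cells. Tek (also called Tie2) binds angiopoietins and is expressed by endothelial cells and by stem cells, where its signal is known to favour quiescence. Tie1 is its orphan partner, Kdr is a receptor of vascular endothelial growth factor and Pdgfra one of platelet-derived growth factors. Igf1r and Insr bind insulin-like growth factors and insulin. Mertk, Axl and Tyro3 form the TAM family, which binds Gas6 and protein S and is known for the clearance of dying cells.

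Over the series, array medians lay between an intensity of 56.2 and 61.7, and 2 arrays of a group correlated over the tested genes with a Spearman's rho of 0.861 to 0.895, against 0.836 to 0.892 for arrays of different groups. By limma, 4 of 14994 genes passed at an adjusted p under 0.05. All 15 neutrophil markers listed were measured, and 14 of them were higher with G-CSF at an unadjusted p under 0.05. Over all genes tested 2.73% were higher at that level, and 0 of the 15 passed after adjustment. The mean of the 15 ran from 7.88 to 8.76 in PBS arrays and from 9.68 to 10.40 in G-CSF arrays. Its part in the results below was not tested.

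Kit and Tek were lower in every G-CSF array than in every PBS array, Kit at 50.9% and Tek at 71.9% of the PBS level. The groups overlapped in the other 8 receptors. After adjustment over all 14994 genes 0 of the 8 tested receptors passed by limma, where 0.0267% of all genes did. At an unadjusted p under 0.05, 2 of the 8 (Kit and Tek) were lower, where 3.3% of all genes were, and 0 were higher, where 2.73% of all genes were. Groups did not overlap, with G-CSF lower, in those 2 receptors and in 5.05% of all genes tested, and with G-CSF higher in 0 receptors and 5.77% of genes. A negative difference was found in 9 of the 10 receptors, 8 of them among the tested ones, and in 49.7% of genes tested. The list was drawn up with these results known, so the counts describe the receptors and support nothing about the family.

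**Figure D1:**
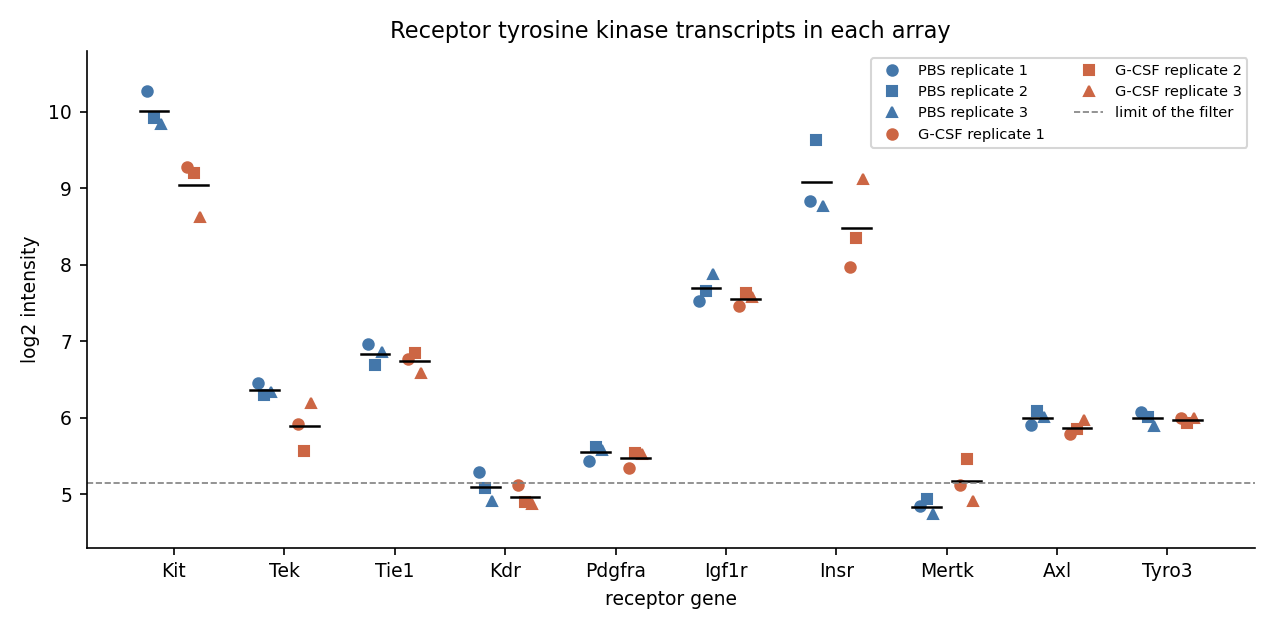
Log2 intensity of the 10 receptor genes (vertical axis) in each of the 3 PBS and 3 G-CSF arrays, with marker shape for the replicate number, a black bar for the group mean and a dashed line at the filter's limit of 5.15. Kit and Tek are the genes whose G-CSF points all lie below their PBS points, and Kdr and Mertk lie around the limit. Heights of different genes come from different probes and are not comparable.

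Kit is described first, with the bases before an annotated start, because it had the most negative difference of the receptors. The window is chr5:75574737-75574986 on the plus strand of GRCm38.p6, taken from RefSeq, and capitals mark the match to GGAA, the core that ETS family factors bind. Kit has 2 promoter windows, and the first listed is used here and in the counts of matches. This Kit promoter window reads as follows.
Kit: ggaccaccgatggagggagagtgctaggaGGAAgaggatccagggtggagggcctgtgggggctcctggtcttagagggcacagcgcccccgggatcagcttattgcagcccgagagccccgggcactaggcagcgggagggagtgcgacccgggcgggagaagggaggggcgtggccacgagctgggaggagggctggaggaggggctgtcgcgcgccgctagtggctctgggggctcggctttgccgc
The window is 70.8% G or C, holds 17 CG dinucleotides, and has 1 match to GGAA and 0 to GATA on both strands.

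The log2 intensity of Kit was 10.28, 9.92 and 9.85 in PBS replicates 1, 2 and 3 and 9.28, 9.21 and 8.63 in G-CSF replicates 1, 2 and 3. The groups did not overlap, and G-CSF replicate 3 was the lowest of the 6. The means were 10.01 ± 0.23 with PBS and 9.04 ± 0.36 with G-CSF (SD, n = 3 per group). Kit differed by -0.98 (SE 0.23, limma 95% interval -1.51 to -0.44, adjusted p = 0.374), which places the G-CSF level between 35.1% and 73.7% of the PBS level. Of the 14994 genes tested, 127 (0.847%) had a more negative difference. Under the 15 processing alternatives the difference stayed between -1.10 and -0.77, and the limma adjusted p between 0.241 and 0.662. Without G-CSF replicate 3, the lowest array, it was -0.77. In a bulk sample, fewer cells that express a gene and less RNA per cell cannot be told apart.

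Pdgfra, Kit and Kdr are 3 consecutive protein-coding genes on chromosome 5, by the RefSeq order of GRCm38.p6, flanked by Gsx2 and Srd5a3. Pdgfra, best known from mesenchymal cells, read 5.44, 5.62 and 5.58 with PBS and 5.35, 5.54 and 5.53 with G-CSF. Its groups overlapped and it differed by -0.07 (SE 0.15, 95% interval -0.42 to 0.28, limma adjusted p = 0.979). Its mean over the 6 arrays was 5.51, against the filter's limit of 5.15. At that dim level the overlap does not show a lack of change. Kdr, an endothelial receptor, read 5.29, 5.08 and 4.91 with PBS and 5.12, 4.90 and 4.87 with G-CSF, with 1 of 6 arrays above the filter's limit. Its difference of -0.13 comes from the fit with the filter off (SE 0.17, limma adjusted p = 0.987). At that level a difference in Kdr cannot be read from these arrays. Within arrays, log2 of Kit minus that of Pdgfra went from 4.47 ± 0.32 to 3.57 ± 0.43, and the groups did not overlap. This gave an exact two-sided permutation p of 0.1, the smallest that 3 against 3 arrays allow, and 0.35 after adjustment over 7 receptor pairs compared in this way. Kit minus Kdr gave the same p, with Kdr too near the limit for the change to be read. Pdgfra is dim as well, so its pair with Kit cannot decide whether Kit and Pdgfra changed differently.

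Tek is shown with 30 bases of its RefSeq promoter window, chr4:94739204-94739233 on the plus strand of GRCm38.p6, around the match to GATA in capitals, the core that GATA factors bind.
Tek: tggcctatgagagGATAcccctattgttcc
In the 250 bases before the annotated start, Tek has 1 match to GATA and 2 to GGAA and is 51.2% G or C, with 2 CG dinucleotides. Of the 9 receptors in the promoter table (Insr is not in it), Tek and Kdr have 1 GATA each and the other 7 have 0. GGAA is in all 9, from 1 match in Kit and Igf1r to 7 in Tie1. Over all 32851 promoter windows of that length in the table, 53.6% hold GATA and 93.4% hold GGAA on either strand. The median window is 52.4% G or C, against 77.6% in Igf1r, 73.2% in Tyro3 and 54.4% in Pdgfra. A match is a description of letters and not a binding site, and the only overlap among the letters searched is that of GATA with its own reverse complement.

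The log2 intensity of Tek was 6.45, 6.30 and 6.34 with PBS and 5.91, 5.56 and 6.19 with G-CSF, in the order of the replicates. The PBS arrays lay close together (6.37 ± 0.08), and the G-CSF arrays were spread more widely below them (5.89 ± 0.32, SD, n = 3 per group). G-CSF replicate 3 came closest to the PBS arrays and G-CSF replicate 2 was the lowest. Tek differed by -0.48 (SE 0.19, 95% interval -0.93 to -0.02, limma adjusted p = 0.801), and 7.02% of all genes tested had a more negative difference. Without G-CSF replicate 2 the difference was -0.31 and without G-CSF replicate 3 it was -0.63. Its limma unadjusted p of 0.0434 stayed under 0.05 in 8 of 15 alternatives, and the adjusted p ran from 0.613 to 0.988 over them.

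Tie1, which forms complexes with Tek, read 6.97, 6.69 and 6.85 with PBS and 6.77, 6.85 and 6.59 with G-CSF. The groups overlapped and Tie1 differed by -0.10 (SE 0.16, 95% interval -0.48 to 0.27, limma adjusted p = 0.967). The pair was also compared within arrays. Log2 of Tek minus that of Tie1 was -0.51, -0.39 and -0.51 with PBS and -0.86, -1.29 and -0.39 with G-CSF, so G-CSF replicate 3 lay among the PBS arrays. The change of -0.37 had an exact two-sided permutation p of 0.3 (0.35 adjusted over the 7 pairs). With 3 against 3 arrays this p cannot fall under 0.1. The test therefore cannot decide whether the 2 Tie receptors responded differently.

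Angpt1, the ligand that activates Tek, had the most negative difference of the 14 ligands listed and a more negative one than any of the receptors. It read 10.23, 10.63 and 10.65 with PBS and 9.41, 9.46 and 9.01 with G-CSF. The groups did not overlap, with G-CSF replicate 3 again the lowest array. The means were 10.50 ± 0.24 and 9.29 ± 0.24 (SD, n = 3 per group), and the difference of -1.21 (SE 0.20, 95% interval -1.68 to -0.74, limma adjusted p = 0.177) puts the G-CSF level at 43.2% of the PBS level. Over the alternatives it ran from -1.35 to -1.07, with an adjusted p of 0.126 to 0.536. Angpt2, known mostly as an antagonist of Tek, differed by -0.17 and Angpt4, the third angiopoietin, by 0.11, with overlapping groups in both.

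**Figure D2:**
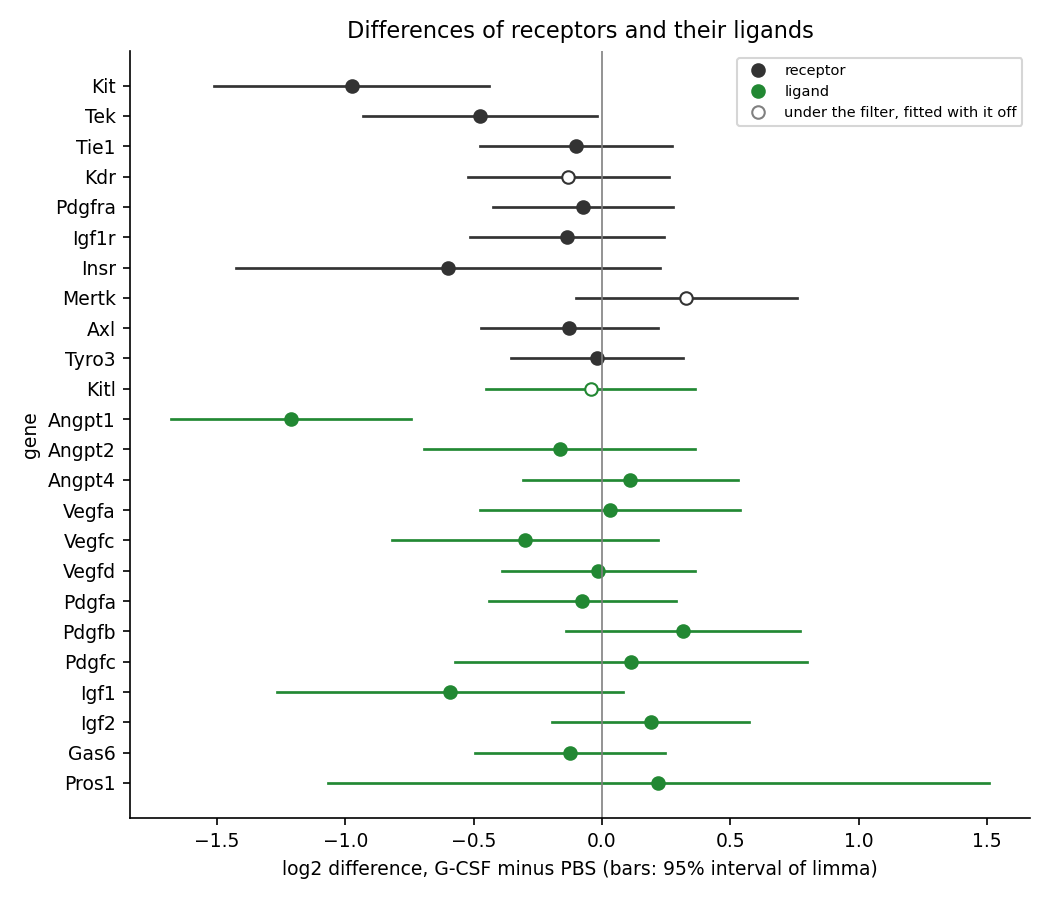
Log2 difference, G-CSF minus PBS (horizontal axis), with limma's 95% interval for the 10 receptors (black) and 14 ligands (green). Open circles are genes under the filter, fitted with it off. The intervals of Kit, Tek and Angpt1 lie below 0 and the others include 0; none passed after adjustment over all genes.

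Insr and Igf1r are close relatives that signal through insulin receptor substrates. Insr read 8.84, 9.63 and 8.77 with PBS and 7.98, 8.35 and 9.13 with G-CSF. PBS replicate 2 was the highest of the 6 arrays, and G-CSF replicate 3 lay above the other 2 PBS arrays, so the groups overlapped. The difference of -0.60 (SE 0.35, 95% interval -1.42 to 0.23, limma adjusted p = 0.932) had the widest interval of the 8 receptors tested. Leaving out G-CSF replicate 3 gave -0.92, leaving out PBS replicate 2 gave -0.32 and leaving out G-CSF replicate 1 gave -0.35.

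A dimmer probeset of Insr, annotated to the same RefSeq transcript, pointed the other way. It read 7.18, 6.56 and 6.94 with PBS and 7.05, 7.85 and 6.90 with G-CSF, a difference of 0.37 (SE 0.29, limma adjusted p = 0.963), with overlapping groups. Its highest array was G-CSF replicate 2 and its lowest PBS replicate 2, which was the highest on the brighter probeset. With the mean of both probesets Insr differed by -0.11, so the direction for this gene depends on the probeset. Igf1r read 7.53, 7.66 and 7.88 with PBS and 7.46, 7.63 and 7.58 with G-CSF. It differed by -0.14 (SE 0.16, 95% interval -0.51 to 0.24, limma adjusted p = 0.966), and its groups overlapped. Log2 of Insr minus that of Igf1r went from 1.39 ± 0.54 to 0.93 ± 0.55 (exact two-sided permutation p = 0.4, adjusted p = 0.4 over the 7 pairs).

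Mertk was the receptor with a positive difference, and it lay under the filter. It read 4.85, 4.94 and 4.74 with PBS and 5.12, 5.46 and 4.92 with G-CSF, so 1 of 6 arrays, G-CSF replicate 2, was above the limit of 5.15. G-CSF replicate 3 lay below PBS replicate 2, so the groups overlapped. With the filter off the difference was 0.33 (SE 0.18, 95% interval -0.10 to 0.76, limma adjusted p = 0.987). Axl read 5.90, 6.09 and 6.01 with PBS and 5.79, 5.85 and 5.97 with G-CSF, and differed by -0.13 (SE 0.15, limma adjusted p = 0.966). Tyro3 had the difference nearest to 0, at -0.02 (SE 0.14, 95% interval -0.35 to 0.31, limma adjusted p = 0.999), with arrays from 5.90 to 6.08. Its sign turned without PBS replicate 1 (0.02) or without G-CSF replicate 2.

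The 3 TAM receptors were also set against each other within arrays, with Mertk above the limit in 1 of them. Log2 of Mertk minus that of Axl went from -1.16 ± 0.11 to -0.71 ± 0.33, and of Mertk minus Tyro3 from -1.15 ± 0.08 to -0.81 ± 0.31 (exact two-sided permutation p = 0.2 each, 0.35 adjusted over the 7 pairs). For Axl minus Tyro3 the change was -0.11 (exact permutation p = 0.3, adjusted 0.35). Macrophages are known to express Mertk and Axl. The mean of the 14 other macrophage markers was 5.44 to 5.64 in PBS arrays and 5.57 to 5.65 in G-CSF arrays. Adgre1 (F4/80) and Cd5l lay under the limit in all 6 arrays. Of the 11 tested, 1 was higher at an unadjusted p under 0.05, where 2.73% of all genes were. It was Slc40a1 (ferroportin, 0.58, SE 0.22, limma adjusted p = 0.761). Its PBS mean of 5.07 lay under the limit, and 4 of its 6 arrays were above it. Slc40a1 thus passed the filter through its G-CSF arrays, and its difference rests on a PBS level at the limit.

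Among the remaining ligands, 0 passed and all groups overlapped, and at an unadjusted p under 0.05 there were 0 by limma. Kitl lay far under the limit in all 6 arrays (3.37 to 3.85) and differed by -0.04 with the filter off (SE 0.17, limma adjusted p = 1.0). Igf1, a ligand of Igf1r, read 5.90, 6.99 and 6.62 with PBS and 5.89, 6.12 and 5.73 with G-CSF. PBS replicate 1 lay within the G-CSF arrays, and the difference was -0.59 (SE 0.29, limma adjusted p = 0.863). It was -0.89 (limma unadjusted p = 0.00558) when PBS replicate 1 was left out and -0.35 when PBS replicate 2 was, with an adjusted p of 0.427 to 0.999 over its alternatives. Igf2 differed by 0.19, and the TAM ligands Gas6 by -0.12 and Pros1 (protein S) by 0.22, the latter with arrays from 4.55 to 6.60. Vegfa differed by 0.03, Vegfc by -0.30 and Vegfd by -0.01. Pdgfa differed by -0.08, Pdgfb by 0.32 and Pdgfc by 0.11, and Pdgfb came under an unadjusted p of 0.05 when G-CSF replicate 1 was dropped. The 13 ligands tested had a median difference of -0.01, against 0.002 over all genes tested.

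The rest of the pathway had 0 genes past the threshold by limma in any list. Of 31 adaptors and effector kinases tested, 0 reached an unadjusted p under 0.05 in either direction (median 0.05). Those with the smallest p were Mtor (0.38, SE 0.17), the docking protein Gab2 (0.66, SE 0.30), the Src family kinase Fyn (-0.56, SE 0.26) and the phosphoinositide 3-kinase subunit Pik3cd (0.32, SE 0.15). The count depended on single arrays. Leaving out G-CSF replicate 1 brought Gab2 under 0.05 (1.01, limma unadjusted p = 0.00131), and leaving out G-CSF replicate 2 gave Gab2 at 0.43 and brought 2 others under it, Fyn and Foxo3. Akt2 came under it when G-CSF replicate 3 was dropped. Foxo3 and Akt2 were named after their values were seen. Of 27 negative regulators, 0 reached it (median -0.08), and Rasa1, which switches off Ras, differed by -0.65 (SE 0.31), the ubiquitin ligase Cblb by -0.31, the phosphatase Ptpn1 by 0.57 and Ptprb, a phosphatase that acts on Tek, by 0.22. With 1 array left out, 0 to 2 negative regulators were under that level, Rasa1 among them when PBS replicate 1 or G-CSF replicate 2 was dropped. Of 11 co-receptors and binding proteins, 1 was higher and 0 were lower at that level, against 2.73% and 3.3% of all genes tested. It was Igfbp6 (0.57, SE 0.18, limma adjusted p = 0.665), a binding protein of insulin-like growth factors. Igf2r, the clearance receptor of Igf2, differed by -0.45 (SE 0.20), Igfbp7 by -0.45 and Igfbp1 by 0.25. With PBS replicate 2 left out Igf2r and Igfbp7 were also under that level, and with PBS replicate 1 or G-CSF replicate 1 left out 0 genes of this list were. Of the 31 adaptors and effector kinases, groups did not overlap in 3 with G-CSF higher and 1 with G-CSF lower. Among the 11 co-receptors and binding proteins these counts were 2 and 1, and among the 27 negative regulators 0 and 0. Over all genes tested the shares were 5.77% and 5.05%.

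Of 13 transcription factors linked to Kit or the Tie genes, 0 reached an unadjusted p under 0.05 (median -0.09). Gata2, a stem cell factor known to act at Kit, differed by -0.31 (SE 0.15, limma adjusted p = 0.868), from 7.43 ± 0.14 to 7.12 ± 0.09. It was the 1 gene of the 13 whose groups did not overlap. With G-CSF lower, 5.05% of all genes tested did not overlap. Ets2 differed by -0.60 (SE 0.28), Ldb1 by -0.38 (SE 0.18) and Lmo2 by -0.16. With 1 array left out, 0 or 1 of the 13 came under that level, namely Ets2 (PBS replicate 1 or G-CSF replicate 3 dropped) or Ldb1 (G-CSF replicate 2 dropped). Of 46 other receptor tyrosine kinases with a probeset, 34 were tested and 0 reached an unadjusted p under 0.05. The most negative of their differences was -0.18, the most positive 0.37 and the median 0.04, and the other 12 lay under the filter. Flt3, the receptor of multipotent progenitors closest in kind to Kit, differed by 0.35 (SE 0.22, limma adjusted p = 0.936) with overlapping groups. Csf1r, the macrophage growth factor receptor, differed by 0.31 (SE 0.15), Ror1 by 0.37 (SE 0.17) and Erbb3 by 0.30 (SE 0.17). Groups did not overlap, with G-CSF higher, in Csf1r, Ror1 and Erbb3. This held for 4 of the 34 tested, where 5.77% of all genes did so, and 0 of the 34 had G-CSF lower without overlap. Flt3 came under an unadjusted p of 0.05 when G-CSF replicate 1 was dropped and Ror1 when PBS replicate 2 was.

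Markers of other cells that express these receptors were read in the same arrays. Kit is also a mast cell gene. Of the 10 other mast cell and basophil markers, Cma1, Cpa3, Fcer1a, Gzmb, Ms4a2 and Tpsab1 lay under the limit in all 6 arrays, and the mean of the 10 was 4.86 to 5.14 with PBS and 4.89 to 4.98 with G-CSF. The 3 of them tested differed by -0.66 (Mcpt8), 0.31 (Hdc) and 0.19 (Tpsb2). Tek, Tie1 and Kdr are endothelial genes. The mean of the 14 other endothelial markers was 6.20 to 6.36 with PBS and 6.20 to 6.27 with G-CSF. Of these 14, 1 was lower at an unadjusted p under 0.05, where 3.3% of all genes were. It was Eng (endoglin, also a stem cell gene, -0.42, SE 0.15, limma adjusted p = 0.728). Emcn differed by -0.60, Vwf by -0.23 and Stab2 by 0.17. For the 10 other stromal markers, which bear on Pdgfra, the mean was 5.56 to 5.69 with PBS and 5.62 to 6.07 with G-CSF, with Lepr, Lum and Postn under the limit in all 6 arrays. Dcn differed by 0.33, Pdgfrb by 0.18, Col3a1 by 0.10 and Cxcl12 by -0.18.

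The neutrophil markers Ltf, Cxcr2, Lcn2 and Mmp8 differed by 2.16, 2.97, 2.06 and 2.38. Like the neutrophil mean, the megakaryocyte mean separated the groups, but 0 genes of either list passed by limma after adjustment. The mean of 10 megakaryocyte markers was 6.15 to 6.40 with PBS and 5.66 to 5.78 with G-CSF. Pf4 differed by -1.92, Mmrn1 by -1.52, Rab27b by -0.72 and Itgb3 by 0.45. Of 9 megakaryocyte markers tested, 4 were lower and 1 was higher at an unadjusted p under 0.05 by limma. Over all genes tested 3.3% were lower and 2.73% higher at that level. Groups did not overlap in 3 of the 9 with G-CSF lower and in 1 with G-CSF higher. The shares over all genes were 5.05% and 5.77%. The mean of 14 stem cell markers was 7.92 to 8.20 with PBS and 7.45 to 7.97 with G-CSF. These groups overlapped because G-CSF replicate 2 (7.97) lay above PBS replicate 1 (7.92). Of the 14 stem cell markers, 11 had a negative difference and 3 a positive one. At an unadjusted p under 0.05 by limma 2 were lower and 0 higher, and 0 passed after adjustment. Trpc6 differed by -1.68, Hmga2 by -0.76, Ctnnal1 by -0.89 and Procr by -0.50. The part of these cell type signals in the values of Kit, Tek and Angpt1 was not tested.

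**Figure D3:**
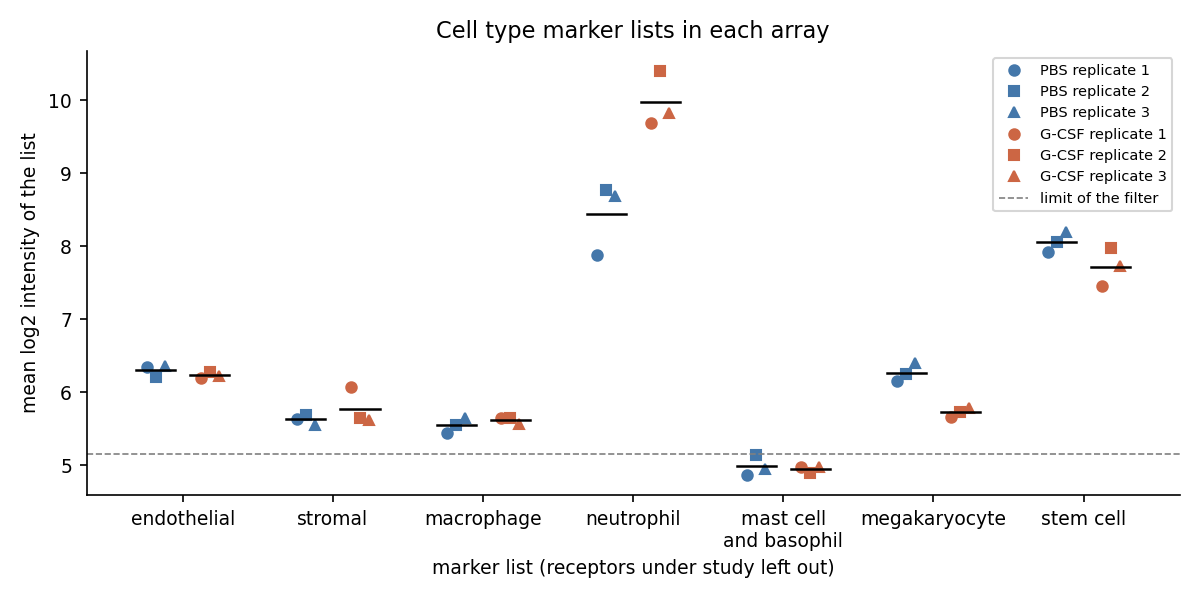
Mean log2 intensity (vertical axis) of 7 marker lists in each array, with the 10 receptors left out of them, marker shape for the replicate number, black bars for group means and a dashed line at the filter's limit. The neutrophil and megakaryocyte means separate the groups, while the endothelial, macrophage and mast cell means overlap.

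Array profiles like those of Kit and Tek were sought by the root mean square difference between the 2 genes' deviations from their own means over the 6 arrays, in log2 units. Predicted or unnamed genes and small RNAs were passed over, and the 5 closest of the rest are given. Closest to Kit were Smad3 (0.159), Cnksr3 (0.179), Trappc13 (0.190), the integrin subunit Itga4 (0.218) and the ubiquitin ligase Nedd4 (0.222). Their differences between groups were -0.89, -0.73, -0.92, -0.64 and -0.76. In each of these 5 genes the G-CSF arrays lay below the PBS arrays and G-CSF replicate 3 was the lowest, as in Kit. Closest to Tek were Zfp870 (0.0586), Rragb (0.0781), Tns2 (0.0823), Ttc19 (0.0898) and Ndufaf3 (0.0912). They differed by -0.53, -0.48, -0.54, -0.35 and -0.42, with G-CSF replicate 2 the lowest array, as in Tek. These genes were picked for their likeness, and with 6 arrays the likeness is a description.

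**Figure D4:**
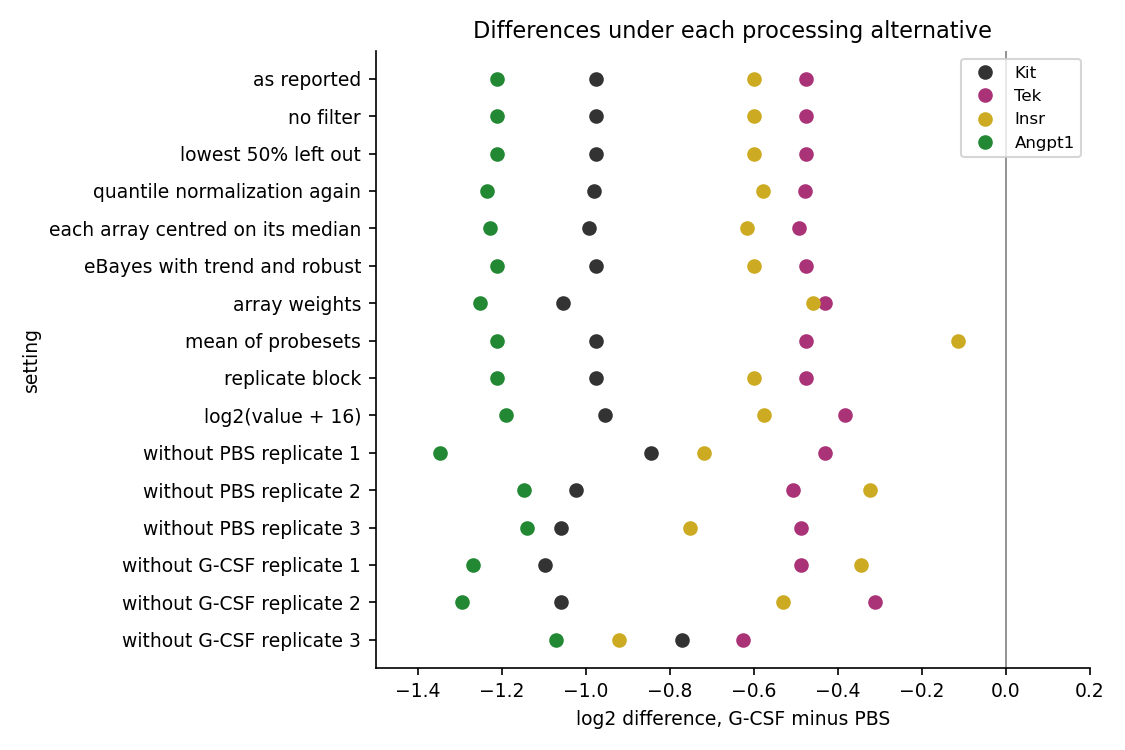
Log2 difference, G-CSF minus PBS (horizontal axis), of Kit, Tek, Insr and Angpt1 as reported and under each of 15 processing alternatives (vertical axis). Kit stays between -1.10 and -0.77 and Angpt1 between -1.35 and -1.07, while Tek moves from -0.63 to -0.31 and Insr from -0.92 to -0.11.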

How the data were processed

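The authors deposited intensity values of 35554 probesets on a linear scale, and the submitters' processing notes name RMA, which as defined corrects background, normalizes between arrays and summarises probes. No software or version is named with it. Log2 was taken first. The platform annotation gave 21789 probesets a single symbol and 1621 more than 1, and did not list 12144. Genes were compared with limma 3.58.1 in R 4.3.3 (lmFit and eBayes, default settings, no covariate, two-sided), with Benjamini-Hochberg adjustment over all 14994 genes and a threshold of 0.05. The fit was run on simulated data as a check of the code, and its power at the differences seen here is not reported. The receptors and the lists (247 of 265 entries matched) were chosen with earlier results of these data known. All receptors and ligands are named, and up to 4 genes per other list with the smallest p. Receptor pairs were compared by exact permutation, a test added after seeing the data. P-values measure the spread between pools. Sequences are from RefSeq, GRCm38.p6. Figures were drawn with matplotlib 3.10.9. Alternatives changed the filter, normalization, variance model, array weights, probeset rule, pseudocount, replicate block and the arrays used.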

Additional observations from a re-analysis of the deposited data

How the results depend on the processing

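Of the receptors, 0 passed after adjustment over all genes under any of the 15 alternatives. The count of receptors lower at an unadjusted p under 0.05 was 2, and it was 1 with the lowest 50% of probesets left out and 1 with array weights, where Tek was lost. It ran from 1 to 3 when 1 array was left out, and Kit was among them each time. The count of all genes that passed was 4. It was 12 with quantile normalization again, 2 with each array centred on its median, 2 with log2(value + 16), and 0 to 6 when 1 array was left out. The difference of Insr was 0.37 with its dimmer probeset, an alternative chosen after seeing the data. That of Tyro3 ran from -0.07 to 0.02 over its alternatives and left negative values when PBS replicate 1 (0.02) or G-CSF replicate 2 (0.002) was dropped, with -0.068 to 0.024 as the range over arrays left out. The cause of these shifts was not tested. The correlations of same-numbered arrays' deviations were 0.289, 0.019 and 0.193. Differently numbered arrays were not compared, so these values cannot decide whether replicate numbers pair the arrays. With the replicate block the count was 5 genes, Kit's limma adjusted p was 0.241 (range 0.241 to 0.662) and 2 receptors were lower at an unadjusted p under 0.05. The number of arrays limits the precision, and Kdr, Mertk and Kitl lie too near or below the filter's limit to be read.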
